A study of Rattus norvegicus with 6 samples.

Results

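The 6 genes Cxcl1, Pla2g2a, Cebpd, Stat5a, Socs3 and Socs2, which belong to the acute-phase and cytokine response, were examined heart by heart in rats that had undergone cardiopulmonary bypass (CPB) and in sham-operated rats. They were selected by the gene symbol that the array's annotation gives each probe. Stat5a had 2 probes and each other gene 1, so the 6 genes, of 1103 on the array, are covered by 7 of its 1185 probes. The genes were picked with CPB and sham values of these same arrays already known, so their values and differences are given as a description, without a test.

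Total RNA of whole heart was measured on 1 array per sample, in 3 samples labelled CPB and 3 labelled sham. In CPB a pump and an oxygenator outside the body do the work of heart and lungs, and sham animals are operated on without it. For strain, age, sex, length of bypass and time of sampling, the labels used here name nothing. The titles number the samples 1 to 3 in each group, and each was taken as a separate heart, which the labels imply and do not state, so the spread within a group may be partly technical.

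Contact of blood with the surfaces of a bypass circuit, and the return of flow to organs, are known to set off an inflammatory response with release of cytokines. Cytokines of the interleukin-6 family act through receptor-bound JAK kinases on STAT transcription factors, which switch on Socs3 and Cebpd, and growth hormone and related hormones act on Stat5a and Stat5b, which switch on Socs2. Tumour necrosis factor, interleukin-1 and endotoxin act largely through the transcription factor NF-kB, for which Cxcl1 and Pla2g2a are established targets.

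Intensities were deposited in equal steps of a grid, and each array had its own lowest level. The share of probes at that lowest level was 10.7% on CPB 2, 20.5% on sham 2, 25.9% on sham 1, 27.4% on CPB 1, 43.3% on sham 3 and 47.3% on CPB 3. The arrays numbered 2 also had the finest steps, so dim probes were resolved best on them, and the arrays numbered 3 stood apart by resolving dim probes least. Of the 7 probes, all 7 lay above the lowest level on CPB 2, 6 on sham 1 and on sham 2, 4 on CPB 1 and on sham 3, and 3 on CPB 3. Below, a level is a quantile-normalized log2 intensity, in which the lowest level corresponds to 8.56 on the arrays numbered 2, 8.61 on those numbered 1 and 8.68 on those numbered 3.

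**Figure D1:**
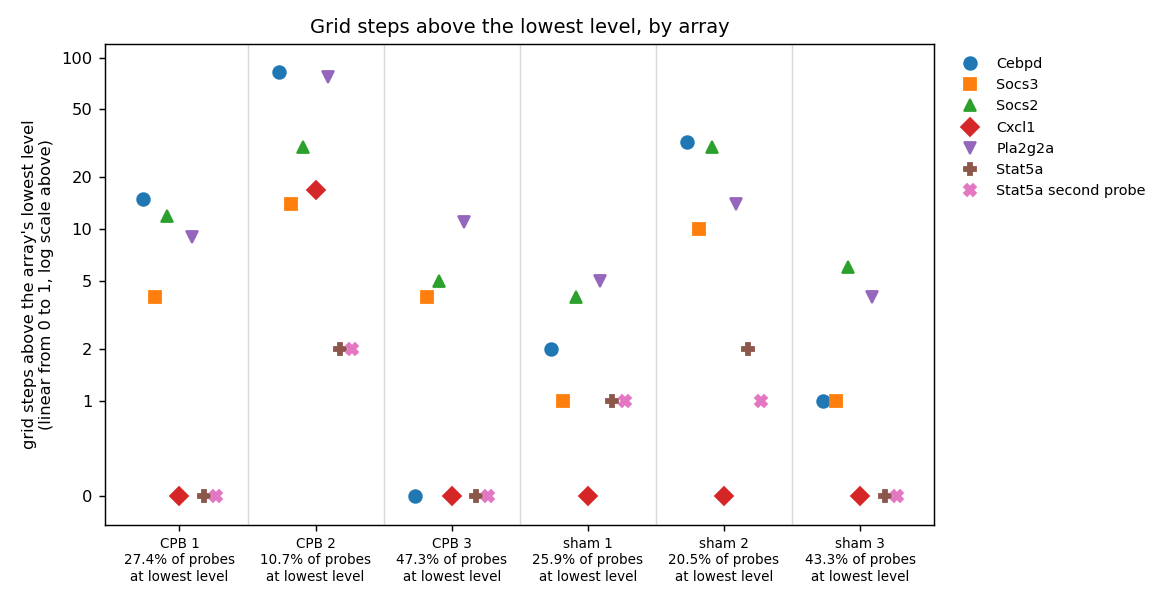
Steps of the intensity grid by which each of the 7 probes lay above the lowest level of its array (vertical axis, in steps, linear from 0 to 1 and logarithmic above), for the 6 arrays, with the share of all 1185 probes at the lowest level under each array name. On CPB 2 all 7 probes lie above 0, on CPB 3 only Socs3, Socs2 and Pla2g2a do, and Cxcl1 is at 0 on every array but CPB 2.

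Cxcl1 encodes a chemokine that attracts neutrophils. It had a level of 10.69 on CPB 2, 17 steps above the lowest level, and was at the lowest level on CPB 1, CPB 3 and all 3 sham arrays. A single heart out of 6 therefore carried a measured Cxcl1 signal. On the linear scale of the deposited values, the CPB 2 signal was 1632 units. That scale was not equalized between arrays. On it, 1632 units lie 7.60 steps above the lowest level on CPB 1, 3.42 on CPB 3, 3.84 on sham 1, 11.05 on sham 2 and 2.99 on sham 3, and the part of array resolution in the single detection was not tested. In all, 35 probes were above the lowest level on CPB 2 and on no other array, with a median of 1 step, and after Cxcl1 with 17 steps the next of them had 2. CPB hearts averaged 9.33 ± 1.18 (SD, n = 3) and sham hearts 8.62 ± 0.06 (SD, n = 3), which differ by 0.71 (SE 0.42). It was 0.01 without CPB 2 and 1.08 without CPB 3. No fold is given, because 5 of the 6 arrays hold no measured level.

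Pla2g2a encodes the secreted group IIA phospholipase A2, which releases fatty acids from phospholipids and attacks bacterial membranes in acute inflammation. Its level was 10.99 on CPB 1, 12.65 on CPB 2 and 12.05 on CPB 3, and 10.88 on sham 1, 10.98 on sham 2 and 10.87 on sham 3. The 3 sham hearts thus lay within 0.11 of each other, CPB 2 and CPB 3 stood well above them, and CPB 1 lay beside the highest sham heart. That sham spread was smaller than 1 grid step on sham 1 (0.19 down to the next level) and on sham 3 (0.26 up to it). The probe was above the lowest level on all 6 arrays, by 4 to 14 steps on the sham arrays and by 9, 77 and 11 steps on CPB 1, CPB 2 and CPB 3.

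Pla2g2a averaged 11.90 ± 0.84 (SD, n = 3) over the CPB hearts and 10.91 ± 0.06 (SD, n = 3) over the sham hearts, which is 0.98 higher on the log2 scale (SE 0.37), or 1.98-fold. The groups did not overlap, with CPB 1 higher than sham 2 by 0.0048, a margin smaller than 1 step of the grid on either array (0.11 down to the next level on CPB 1 and 0.10 up to it on sham 2). Groups apart with CPB higher were seen for 1.6% of all probes. In the values as deposited the groups overlapped: the 3 sham arrays read 1995, 1992 and 1995 linear units and CPB 1 read 1901, below all of them, against 6439 on CPB 2 and 4044 on CPB 3. The difference was 0.60 without CPB 2 and 1.41 without CPB 1.

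Cxcl1, Pla2g2a and Cebpd had CPB 2 as their highest heart, as had 9.11% of all probes. The sequences before the start sites of Cxcl1 and Pla2g2a are shown to let the reader compare them, and none was at hand for Cebpd. They are the 250 bases before the annotated start, from RefSeq on the rat assembly GRCr8. Cxcl1 lies on the minus strand (chr14:17479322-17479571) and Pla2g2a on the plus strand (chr5:156359475-156359724), and both are written 5′ to 3′ along the gene. Capitals mark matches, on either strand, to the NF-kB consensus, to the STAT consensus TTCNNNGAA or to the C/EBP consensus TTNNGNAAT.
Cxcl1: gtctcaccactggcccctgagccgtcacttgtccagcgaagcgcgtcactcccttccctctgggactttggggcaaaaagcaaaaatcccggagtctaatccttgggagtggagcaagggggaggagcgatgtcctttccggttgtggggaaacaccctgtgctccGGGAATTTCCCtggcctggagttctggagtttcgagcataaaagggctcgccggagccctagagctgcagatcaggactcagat
Pla2g2a: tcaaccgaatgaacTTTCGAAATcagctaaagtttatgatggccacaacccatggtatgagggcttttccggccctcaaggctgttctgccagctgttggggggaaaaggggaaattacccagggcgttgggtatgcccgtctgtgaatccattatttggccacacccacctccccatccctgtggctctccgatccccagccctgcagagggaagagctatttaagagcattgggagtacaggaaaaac
The Cxcl1 window held overlapping matches to the NF-kB consensus on both strands, from 84 to 74 bases before the start (GGGAATTTCC on the strand shown). The Pla2g2a window held 1 match to the C/EBP consensus, TTTCGAAAT, from 236 to 228 bases before the start, and none to the others. Among 33465 rat windows of the same length, 6.33% held an NF-kB match, 7.67% a STAT match and 10.9% a C/EBP match, so each of these matches also occurs at many other genes. The table of windows held 4 of the 6 genes. The Stat5a window had no match to any of the 3 motifs, and the Socs3 window is not described because its start site lay inside the annotated gene. A match is a stretch of letters and says nothing of whether a factor was bound.

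Stat5a encodes a transcription factor activated by growth hormone, prolactin and several interleukins. Its brighter probe had levels of 9.20 on sham 1, 9.35 on sham 2 and 8.99 on CPB 2, and was at the lowest level on CPB 1, CPB 3 and sham 3. The second probe read 9.20 on sham 1 and 8.99 on both sham 2 and CPB 2, and was at the lowest level on the same 3 arrays. Neither probe was more than 2 steps above the lowest level on any array, so both sat at the limit of what these arrays resolved. The brighter probe averaged 8.76 ± 0.20 (SD, n = 3) over CPB hearts and 9.08 ± 0.35 (SD, n = 3) over sham hearts, so CPB minus sham was -0.32 (SE 0.24), and for the second probe it was -0.20 (SE 0.21). The groups overlapped for both probes, since CPB and sham arrays were at the lowest level. Without sham 2 the brighter probe stood at -0.15. The second stood at -0.06 without sham 1, -0.12 without CPB 1, -0.33 without CPB 2 and -0.32 without sham 3. The values as deposited gave -0.82 and -0.70, and CPB 1, on which both probes were at the lowest level, had the lowest such level of the 6 arrays (171 linear units, against 270 to 557 on the others). No probe sequence was used, so signal from the near-identical Stat5b was not tested.

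Cebpd encodes C/EBP delta, a transcription factor that is induced early in the acute-phase response and switches on acute-phase and cytokine genes. Its level was 11.64 on CPB 1, 12.82 on CPB 2, 9.76 on sham 1, 11.93 on sham 2 and 9.49 on sham 3, and it was at the lowest level, 8.68, on CPB 3. Hearts of both groups were therefore found at both ends. CPB 3 holds no measured level, and the 5 hearts that do spanned 3.32 on the log2 scale. In grid steps, whose width differs between arrays and is finest on the arrays numbered 2, the probe lay 15 above the lowest level on CPB 1 and 82 on CPB 2, and 2, 32 and 1 on sham 1, sham 2 and sham 3.

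The Cebpd group means were close for their spread, 11.05 ± 2.13 (SD, n = 3) for CPB and 10.39 ± 1.34 (SD, n = 3) for sham, which leaves CPB 0.65 higher (SE 0.79). Its order followed the array numbers. Both arrays numbered 2 held the 2 highest Cebpd values, a pattern seen for 7.76% of all probes, and both arrays numbered 3 held the 2 lowest, seen for 9.2%. Those are also the arrays with the finest and, by share of probes at the lowest level, the poorest resolution, and the part of that in the Cebpd values was not tested. No single heart could be left out without a large move of the difference, which was 0.40, -0.24 and 1.85 without CPB 1, CPB 2 and CPB 3, and 0.32, 1.38 and 0.18 without sham 1, sham 2 and sham 3.

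Socs3 encodes an inhibitor that binds activated cytokine receptors and JAK kinases and ends interleukin-6 signalling. Its level was 10.09 on CPB 1, 10.45 on CPB 2 and 10.81 on CPB 3, and 9.20 on sham 1, 10.58 on sham 2 and 9.49 on sham 3. All 3 CPB hearts stood above sham 1 and sham 3, and sham 2 stood above CPB 1 and CPB 2, so the groups overlapped through 1 sham heart. Socs3 averaged 10.45 ± 0.36 (SD, n = 3) over CPB hearts and 9.76 ± 0.73 (SD, n = 3) over sham hearts, so CPB stood 0.69 higher (SE 0.39). On sham 1 and sham 3 the probe was 1 step above the lowest level, where the next level up lay 0.56 and 0.67 higher, so the size of the gap rests on single grid steps. The difference was 1.09 without sham 2, when the groups no longer overlapped, and 0.44 without sham 1.

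Socs2, a related inhibitor of growth hormone signalling, did not part the groups. Its level was 11.34 on CPB 1, 11.31 on CPB 2 and 11.08 on CPB 3, and 10.69 on sham 1, 11.89 on sham 2 and 11.33 on sham 3. Every CPB heart lay between the lowest and the highest sham heart. Socs2 averaged 11.24 ± 0.14 (SD, n = 3) over CPB hearts and 11.30 ± 0.60 (SD, n = 3) over sham hearts. CPB minus sham was -0.06 (SE 0.33), and its sign changed with the scaling, to 0.28 when arrays were scaled to the same median. It was 0.23 without sham 2, 0.04 without CPB 3, -0.09 without CPB 1 or CPB 2, and -0.38 without sham 1. The probe was above the lowest level on all 6 arrays, by 4 to 30 steps.

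**Figure D2:**
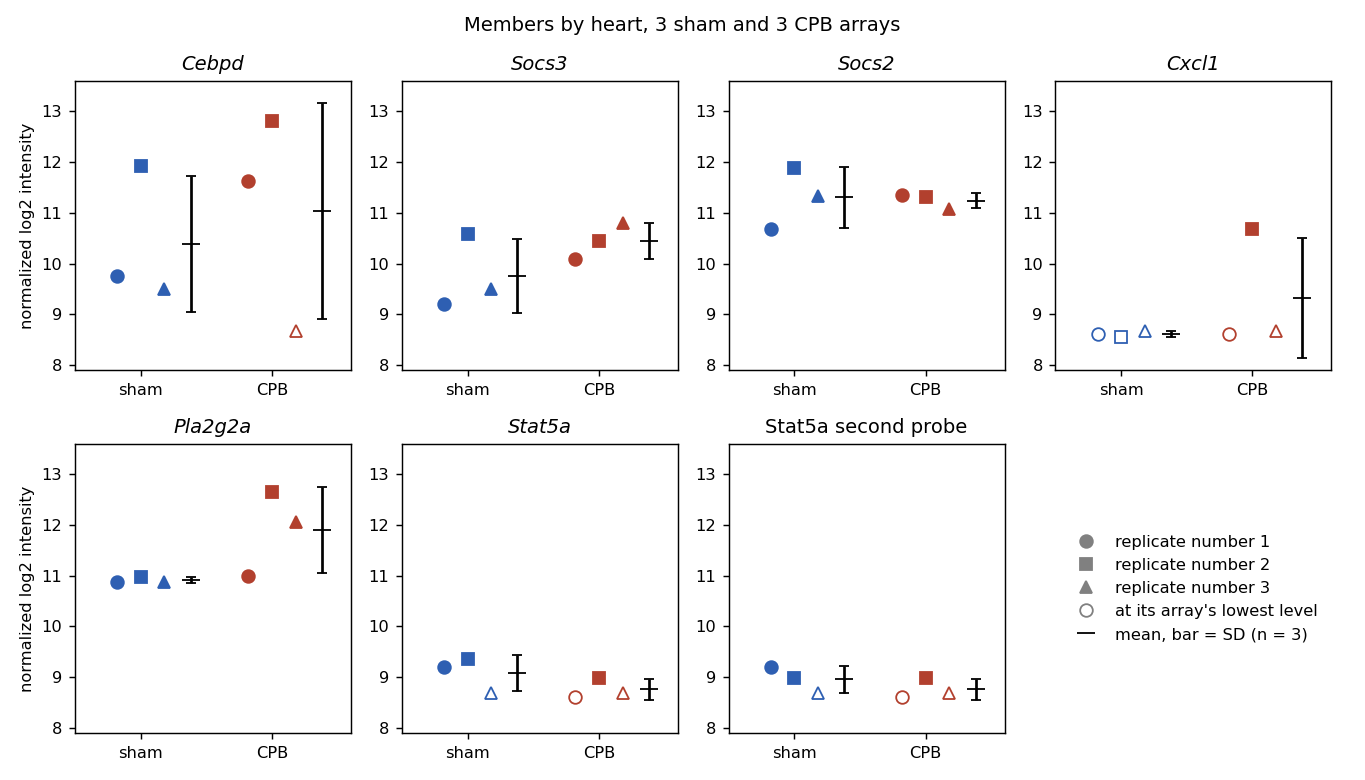
Normalized log2 intensity (vertical axis) of the 7 probes in the 3 sham and 3 CPB hearts, with the symbol giving the replicate number, open symbols for values at the array's lowest level, and mean ± SD beside each group. Pla2g2a has 3 sham hearts together near 10.9 with CPB 2 and CPB 3 above them, Cxcl1 has 1 heart above the lowest level, and Cebpd spreads within CPB from the lowest level of CPB 3 to 12.82 on CPB 2.

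Taken heart by heart, the 6 genes were not high together in the same hearts. CPB 2 lay above all 3 sham hearts for Cxcl1, Pla2g2a and Cebpd, 3 of the 7 probes, where 14.9% of all probes did so. CPB 3 lay above all 3 sham hearts for Pla2g2a and Socs3, 2 probes (19.1% of all probes), and below all of them for Cebpd (14.2% of all probes), where CPB 3 was at its lowest level. CPB 1 did so for Pla2g2a alone (16.2% of all probes), by the margin of 0.0048 given above. Pla2g2a was thus the gene high in both CPB 2 and CPB 3, while Cebpd and Cxcl1 were high in CPB 2 and at the lowest level in CPB 3. Sham 2 was the highest sham heart for Cebpd, Socs3, Socs2 and the brighter Stat5a probe. It was the highest of all 6 hearts for Socs2 and that Stat5a probe, as for 13.4% of all probes. For Pla2g2a sham 2 was the highest sham heart in the normalized values alone. As deposited it was the lowest of them, with 1992 linear units against 1995 on sham 1 and on sham 3.

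Setting hearts of the same replicate number side by side gave a different gene for each number. At number 1 the largest CPB minus sham difference was that of Cebpd (1.88), followed by Socs3 (0.89) and Socs2 (0.65), with 0.10 for Pla2g2a. At number 2 it was that of Cxcl1 (2.13, with the sham array at its lowest level), followed by Pla2g2a (1.67) and Cebpd (0.89), while Socs3 and Socs2 stood at -0.13 and -0.58. At number 3 it was that of Socs3 (1.31), followed by Pla2g2a (1.18), with Socs2 at -0.25 and Cebpd at -0.81. Pla2g2a was the only one of the 7 probes with CPB higher at all 3 numbers, where 7.51% of all probes were. Its margin of 0.10 at number 1 was smaller than 1 grid step (0.11 down on CPB 1 and 0.25 up on sham 1). As deposited, CPB 1 read 1901 linear units and sham 1 1995, so that difference was reversed.

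**Figure D3:**
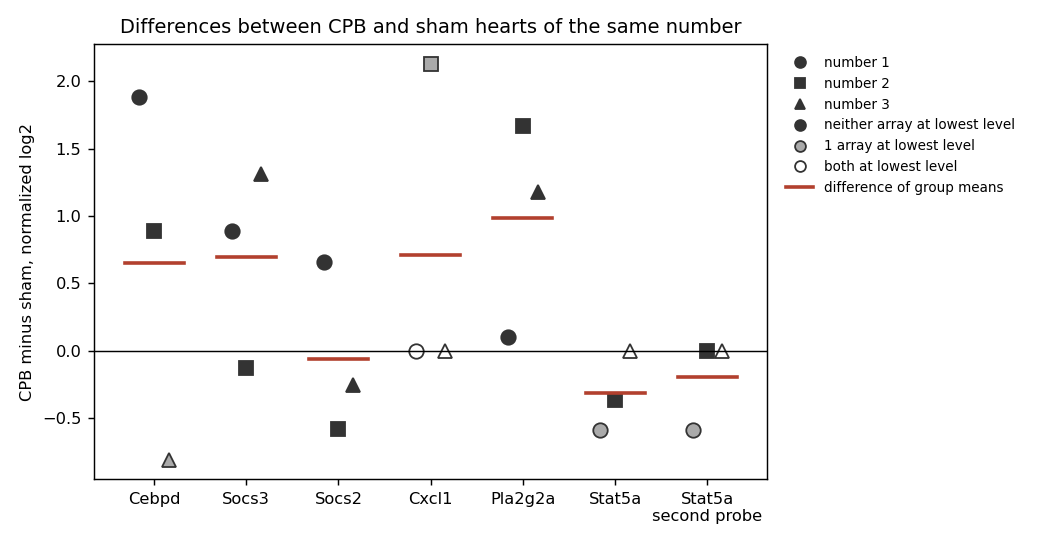
CPB minus sham difference in normalized log2 intensity (vertical axis) between hearts of the same replicate number, for the 7 probes, shaded by how many of the 2 arrays were at their lowest level, with a red bar for the difference of the group means. Pla2g2a has 3 points above 0, from 0.10 (less than 1 grid step) to 1.67. Cebpd and Socs3 have points on both sides of 0.

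Of the 7 probes, 4 had a CPB minus sham difference above 0.5 (Pla2g2a, Cxcl1, Socs3 and Cebpd), as had 4.98% of all 1185 probes, and nothing is read from that count because the genes were picked with this contrast known. The median difference over all probes was -0.03, against -0.29 in the values as deposited and 0.11 after median scaling, and each difference is to be read against that shift. As deposited, the differences were 0.88 for Pla2g2a, 0.38 for Cxcl1, 0.40 for Socs3, 0.49 for Cebpd and -0.12 for Socs2. After median scaling they were 1.28, 0.77, 0.80, 0.89 and 0.28.

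Across all probes no difference passed limma's adjusted threshold of 0.05 (0 of 1185, 0%), and 35 (2.95%) had an unadjusted p under 0.05. Sparc passed with the values as deposited, without CPB 1 or with the dimmest probes left out.

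Likeness between profiles over the 6 hearts was measured by Pearson's r for the 4 genes above the lowest level on at least 5 arrays, as a description over arrays that share the lowest levels described above. Among these genes, r was 0.61 between Socs3 and Pla2g2a, 0.55 between Cebpd and Socs2, 0.53 between Socs3 and Socs2, 0.29 between Cebpd and Socs3, 0.25 between Cebpd and Pla2g2a and -0.07 between Socs2 and Pla2g2a. None of the 4 was among the closest profiles of another. For the closest pair, 6.64% of 467 other genes above the lowest level on all arrays had a higher r with Pla2g2a than Socs3 had, and 14.1% a higher r with Socs3 than Pla2g2a had.

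The profiles nearest to Pla2g2a were those of the ribosomal protein gene Rps7 (r = 0.91), the nuclear receptor coactivator Pnrc1 (0.90) and the ubiquitin ligase regulator Cand1 (0.88). Nearest to Cebpd were the ribosomal protein gene Rpl15 (0.96), the amino acid transporter subunit Slc3a2 (0.95) and the glutamate dehydrogenase Glud1 (0.93). Slc3a2, like Cebpd, was highest on CPB 2 and lowest on CPB 3. It had 12.82 on CPB 1, 13.00 on CPB 2 and 11.08 on CPB 3, and 11.54, 12.17 and 11.55 on sham 1, sham 2 and sham 3. CPB 1 stood above sham 2 for Slc3a2 and below it for Cebpd. Nearest to Socs3 were the dim probes of Pdc and Fuca1, which held the same level on every array (0.94 each), and the histone gene H2az1 (0.93). Nearest to Socs2 were Agxt2 (0.95), Cyth1 (0.95) and S100g (0.94), each between 1 and 5 steps above the lowest level. An r of at least 0.9 was reached by 1.92% of these genes with Cebpd, 1.28% with Socs3, 1.92% with Socs2 and 0.214% with Pla2g2a.

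Other genes of the same pathways were scarce on this array. Of 9 lists with 374 genes, 42 genes were measured besides the 6, of which 13 were measured above the lowest level on every array. None of the 42 passed the threshold in limma or had an unadjusted p under 0.05 (0 of 42), 18 were higher and 23 lower in CPB, and their median difference was -0.10, beside -0.03 over all probes. The sign of 21 of the 42 changed in the values as deposited or after median scaling, so higher and lower describe the normalized values alone.

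Besides the 6 genes, 3 further cytokine and chemokine ligands were measured. Cx3cl1, the membrane-bound chemokine fractalkine, was at 10.09, 11.13 and 10.09 on CPB 1, CPB 2 and CPB 3, and at 10.32, 10.58 and 10.16 on the sham arrays, so CPB 2 was its highest heart as for Cxcl1. Its difference was 0.09 (SE 0.36), and those of Ctf1 (cardiotrophin-1, an interleukin-6 family cytokine) and Xcl1 were 0.28 (SE 0.25) and -0.25 (SE 0.21), both at the lowest level on 3 or more arrays. Ctf1 stood at -0.21 in the values as deposited.

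Among 8 receptors, 5 were higher and 3 lower, with a median of 0.02. Lifr, the receptor subunit for leukaemia inhibitory factor and cardiotrophin-1, was the receptor above the lowest level on all arrays, with a difference of 0.18 (SE 0.33). The difference was -0.22 (SE 0.31) for Il1rap, the co-receptor for interleukin-1, and -0.18 and -0.14 for Il1rl2 and the chemokine receptor Cxcr5. Il1rl2 and Cxcr5 were at the lowest level on 4 and 5 of the 6 arrays. Ccr3, Tlr4, Il1rl1 and Tnfrsf11b lay 1 step above it on CPB 2 and on no other array. That step read 8.61, under the 8.68 at which CPB 3 and sham 3 have their lowest level. It gave each of them a difference of 0.02, so besides Lifr the receptors counted as higher hold no measured difference.

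Both further genes of JAK and STAT signalling were higher, neither past the threshold. Pias3, an inhibitor of STAT3, was at 10.09, 9.89 and 9.52 on CPB 1, CPB 2 and CPB 3 and at 9.20, 9.52 and 9.49 on sham 1, sham 2 and sham 3, a difference of 0.43 (SE 0.35, limma adjusted p = 0.909). CPB 3 and sham 2 held the same value, so the groups met without crossing. Irs2, an adaptor of insulin signalling, differed by 0.25 (SE 0.31), and by 0.02 in the values as deposited. Its probe did not rise off the lowest level in CPB 3 or sham 3. It stood 2 and 4 steps up in CPB 1 and CPB 2, and 1 step up in sham 1 and sham 2.

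No other C/EBP family member of the list was matched to a probe, and of 6 other inducible transcription factors 1 was higher and 5 lower, with a median of -0.17 (0.12 after median scaling). Crem, Egr2 and Klf10 stood at -0.25 (SE 0.40), -0.20 (SE 0.16) and -0.20 (SE 0.21). Egr2 rose off the lowest level in sham 1 alone, by 1 step, so its difference rests on that step. Klf10 did so in CPB 2, sham 1 and sham 2, by 2, 1 and 1 steps. Crem was 0.15 after median scaling. The kinases Map3k12 and Map3k1 differed by -0.18 (SE 0.16) and 0.11 (SE 0.26), the latter -0.06 in the values as deposited. Map3k12 had a signal over the lowest level in CPB 2 and sham 1 alone, by 1 step each. Map3k1 had one in CPB 1, CPB 2 and sham 1, by 2, 1 and 1 steps.

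Of 9 acute-phase proteins and mediators, 2 were higher, 6 lower and 1 equal, with a median of -0.13. The liver pentraxin Apcs was at the lowest level on all 6 arrays. Haptoglobin (Hp), a classical acute-phase protein, was at 8.99 and 9.35 on CPB 1 and CPB 2 and at the lowest level on CPB 3. In the sham group it was at the lowest level on sham 1 and at 10.03 and 9.49 on sham 2 and sham 3, a difference of -0.37 (SE 0.38). F3, which encodes tissue factor, the starter of coagulation, lay apart between groups in the normalized values alone. There every CPB value (8.68 to 8.99) was under every sham value (9.20 to 10.16). CPB 3 was at its lowest level, and CPB 1 and sham 1 were each 1 step up. The gap from 8.99 to 9.20 was smaller than 1 grid step on sham 1 (0.59 down to the next level). As deposited the groups overlapped, with 543 linear units on CPB 3 and 530 on sham 2. Its difference was -0.68 (SE 0.35, limma adjusted p = 0.909), it was never more than 2 steps above the lowest level, and 2.62% of all probes had groups apart with CPB lower. The complement component C1qb differed by -0.38 (SE 0.28), and by 0.07 after median scaling.

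Of 5 other phospholipase and eicosanoid genes, 1 was higher and 4 lower (median -0.15). Pla2g1b, the pancreatic relative of Pla2g2a, was at most 2 steps above the lowest level and differed by 0.07 (SE 0.21), or -0.16 as deposited. Hpgd, which inactivates prostaglandins, was above the lowest level on all arrays and differed by -0.21 (SE 0.34). Plcb2 and Pld1 differed by -0.25 (SE 0.21) and -0.13 (SE 0.13). Plcb2 rose off the lowest level in CPB 2 and sham 3 alone, and Pld1 in CPB 2 and sham 2 alone, each time by 1 step. The list of growth hormone and STAT5 targets, read beside Stat5a and Socs2, had 2 measured genes, both of milk proteins: Csn2 at 0.07 (SE 0.21, and -0.16 as deposited) and Wap at -0.11 (SE 0.48). Csn2 was at the lowest level on 1 CPB array and 2 sham arrays.

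The 5 measured genes known to be induced by glucocorticoids, the stress hormones that also induce Cebpd, had a median of 0.00, with 3 higher and 2 lower. The phosphatase Dusp1 stood at -0.71 (SE 0.40), the clock gene Per2 at -0.37 (SE 0.35) and glutamine synthetase (Glul) at 0.18 (SE 0.37), which was -0.04 in the values as deposited. Per2 was at the lowest level on 1 CPB array, and Glul on 1 CPB and 1 sham array.

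**Figure D4:**
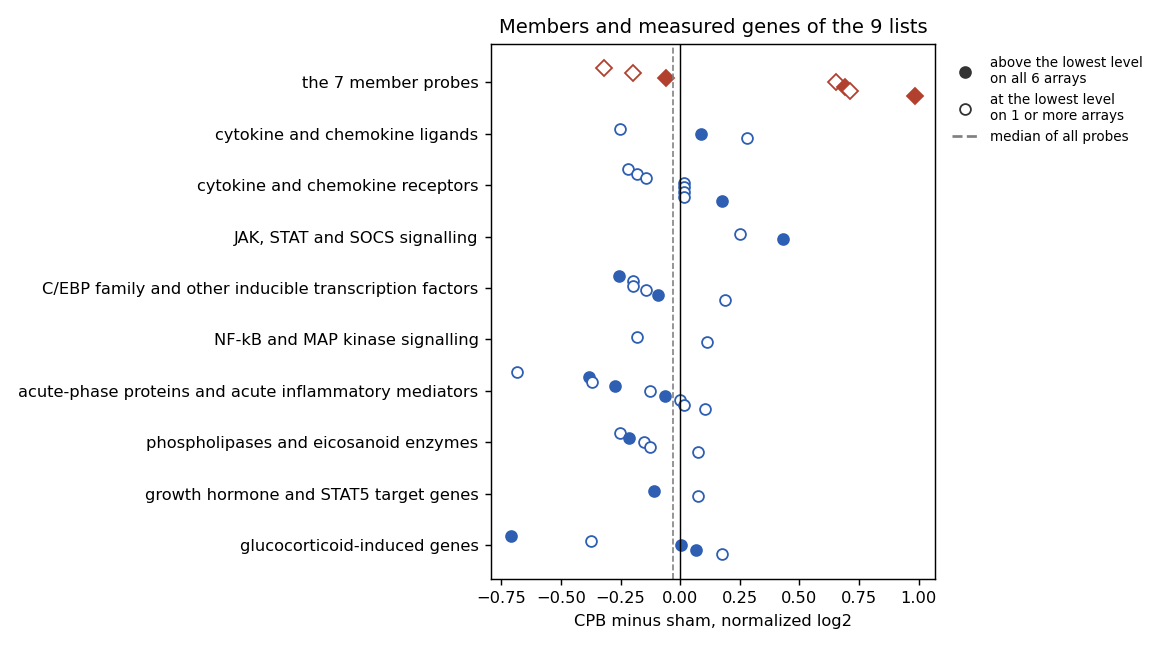
CPB minus sham difference in normalized log2 intensity (horizontal axis) of the 7 probes (red) and of the measured genes of the 9 lists (blue), open where a probe was at the lowest level on 1 or more arrays, with a dashed line at the median of all probes (-0.03). The genes of the lists sit between -0.71 and 0.43, and Pla2g2a, Cxcl1, Socs3 and Cebpd to the right of them. Nothing is read from that position, because the genes in red were picked with this contrast known.

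The 7 measured heart muscle markers, among them Myh6, Tnnt2 and Tnni3, were all above the lowest level on all arrays. So were 42.0% of all probes, and being above that level is therefore no check of the tissue label. Whole heart holds many cell types, so fewer cells of a type and less RNA per cell cannot be told apart. Of 20 neutrophil and monocyte markers 1 was measured, S100a9, which was at 9.49, 11.39 and 10.81 on CPB 1, CPB 2 and CPB 3 and at 10.88, 12.47 and 11.55 on sham 1, sham 2 and sham 3. S100a9 was lower in CPB at each number while Pla2g2a was higher at each, at number 1 by less than 1 grid step. The S100a9 difference was -1.07 (SE 0.47, limma adjusted p = 0.909). The highest S100a9 heart within each group was number 2, as for Cebpd, the brighter Stat5a probe and Cx3cl1. For Pla2g2a that held in the normalized values, but as deposited sham 2 was its lowest sham heart. The arrays numbered 2 also had the finest steps, and the part of S100a9 or of the steps in those values was not tested.

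Of 2 macrophage, 4 lymphocyte and 3 mast cell markers, none passed the threshold, and in CPB and sham hearts their summed linear levels ran from 4401 to 5662 and 5452 to 6957, from 5669 to 8207 and 5755 to 6013, and from 1988 to 3449 and 2828 to 3067. The 2 fibroblast markers, Sparc and Dcn, summed to 11310 to 21904 in CPB and 31583 to 36385 in sham hearts. Taken singly, Sparc had groups apart with CPB lower (-1.50, SE 0.33), as had 2.62% of all probes. For Dcn the groups overlapped (-0.51, SE 0.44). The 3 smooth muscle markers summed to 8473 to 16002 in CPB and 9564 to 11630 in sham hearts. The part of any of these in the values of the 6 genes was not tested. Of 12 endothelial markers, 0 were matched to a probe.

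**Figure D5:**
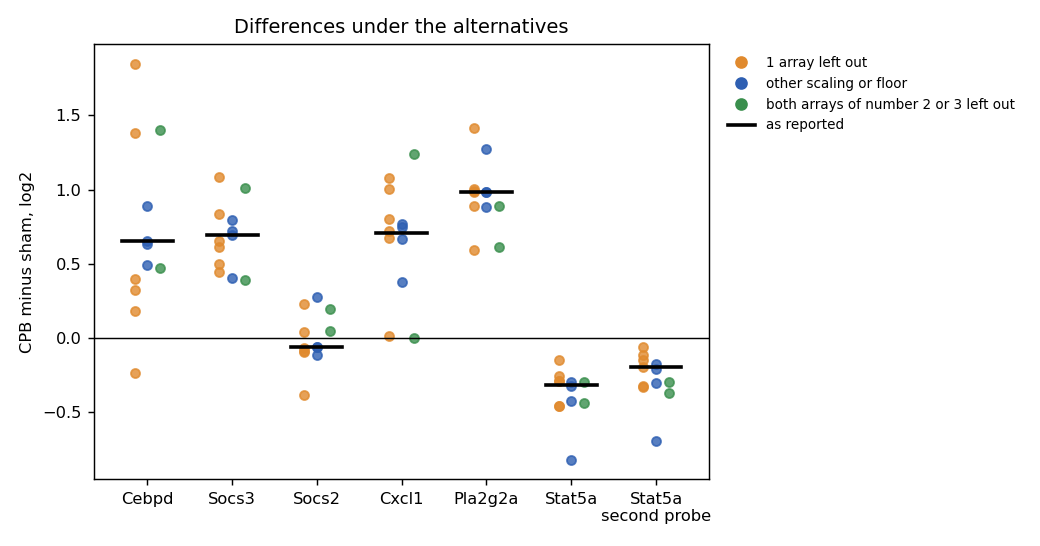
CPB minus sham difference in log2 intensity (vertical axis) of the 7 probes as reported (black bar) and under 12 alternatives (points), coloured by kind. Pla2g2a and Socs3 lie above 0 and both Stat5a probes below 0 in all 12, Cxcl1 comes to 0 without the arrays numbered 2, and Cebpd and Socs2 have points on both sides of 0.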

How the data were processed

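Arrays of 3 CPB and 3 sham rat hearts were grouped by title. Each deposited value is a natural log, or more exactly an inverse hyperbolic sine, which was inferred from the numbers themselves because the labels name no unit. The authors' background correction and normalization are unknown here. The hyperbolic sine of a value, times 2, lies on a grid of equal steps, 80.1 to 359.6 linear units wide, above a lowest level of each array. Such linear values were quantile normalized (limma normalizeQuantiles, ties averaged) and taken to log2 with no pseudocount. Probes at the lowest level were kept as measured. Differences were fitted in R 4.3.3 by limma 3.58.1 (eBayes after lmFit, two-sided, variance trend on, Benjamini-Hochberg over all 1185 probes, threshold 0.05), and the fit was tested on simulated data. With 3 arrays a group, their number limits the precision, and an SE is that of the fit.

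The 6 genes and all lists were chosen with earlier results of these data known. Of the probes, 1113 had 1 gene symbol, 2 several and 70 none, and 1106 of the 1113 matched the RefSeq table (GRCr8). In lists, a gene was represented by its brightest probe. Named genes were the 6, the 3 with the smallest p in each list, and, for a member above the lowest level on at least 5 arrays, the 3 genes above it on all arrays with the highest r. Others were named after their values were seen. The arrays' deviations from their group mean had correlations of 0.240, 0.277 and 0.296 for arrays numbered 1, 2 and 3, all above 0.1. The labels do not say whether the numbers pair the hearts. Arrays numbered 2 were also alike in resolution, as were those numbered 3, so pairing and resolution cannot be told apart in these correlations. The fit without a block was kept, with the block as an alternative. The alternatives were other scalings, a common floor, a filter on dim probes, no variance trend and leaving out arrays.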

Additional observations from a re-analysis of the deposited data

How the results depend on the processing

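The replicate block cannot move a difference of means in this balanced design and is left aside first. Of 84 comparisons of a probe's difference with another alternative, 75 kept their direction and moved by less than 1 SD, and Cxcl1 came to 0 without both arrays numbered 2. The 75 include Cxcl1 without CPB 2 (0.71 to 0.01) and Cebpd without CPB 3 (0.65 to 1.85). The count therefore does not show that differences kept their size. Socs2 turned to 0.28 after median scaling, 0.19 without both arrays numbered 2 and 0.046 without both numbered 3, and ran from -0.38 to 0.23 with 1 array left out. Cebpd ran from -0.24 to 1.85 with 1 array left out. Leaving out 1 array gave 0.01 to 1.08 for Cxcl1, 0.60 to 1.41 for Pla2g2a, 0.44 to 1.09 for Socs3, and -0.46 to -0.15 and -0.33 to -0.06 for the Stat5a probes. In the values as deposited the Stat5a probes stood at -0.82 and -0.70. Pla2g2a and Socs3 were higher in CPB in all 12 of these alternatives, and Pla2g2a had groups apart in 10. With the replicate block, differences stay the same by construction (0.65 for Cebpd), and the SE became 0.63 for Cebpd, 0.36 for Socs3, 0.31 for Socs2, 0.57 for Cxcl1, 0.38 for Pla2g2a, and 0.15 and 0.16 for the Stat5a probes. The block called 0 probes, with 38 at an unadjusted p under 0.05. The count of probes called was 0 to 1 with 1 array left out, and 1 in the values as deposited and among the 916 probes above the lowest level on at least 3 arrays, each time Sparc. Leaving out both arrays of a number was chosen after seeing the data. Grid steps limit the precision of dim probes.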
